A study of Mus musculus with 18 samples.

Results

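The 10 genes described here mark or direct dendritic cells and were followed in the lacrimal gland of a mouse strain with gland inflammation and of a control strain. The members were named by symbol, as genes of conventional, plasmacytoid and mature dendritic cells, and each symbol matched 1 row of the count table, which gave 10 of 54232 genes. They are Itgax, Flt3 and Zbtb46 (shared by conventional dendritic cells), Irf8 and Batf3 (transcription factors), Itgae, Xcr1 and Clec9a (surface molecules of the cross-presenting subset), Siglech (plasmacytoid dendritic cells) and Ccl22 (a chemokine of mature dendritic cells).

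RNA from whole lacrimal glands of male mice was sequenced when they were 2, 4 or 6 months old. The control strain was BALB/cJ, called BALB/c here. The other strain was NOD.B10Sn-H2b/J, called NOD.H-2b, a line on the non-obese diabetic background with another major histocompatibility haplotype. Each of the 6 groups (BALB/c and NOD.H-2b at each age) held 3 mice, 18 mice in all. The strains differ at many loci, and the part of the histocompatibility haplotype and that of the rest of the genome cannot be told apart in these groups. Whole glands hold epithelial, stromal and immune cells, so for every gene below fewer cells of a type and less RNA per cell cannot be told apart.

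The libraries held 57094775 to 63309172 counts in BALB/c and 56840654 to 62057758 counts in NOD.H-2b mice at 2 months. They held 54255982 to 67138830 and 49480781 to 62623939 counts at 4 months, and 50032070 to 103936830 and 50470457 to 58993318 counts at 6 months, the largest being BALB/c replicate 1 at 6 months. Levels are given in CPM, the count of a gene relative to its library total, on 1 scale for all 18 mice set by the trimmed mean of M values (TMM). The tissue label was checked against epithelial genes. Ltf, the gene of the tear protein lactoferrin, lay between 521 and 871 CPM in every mouse, and the epithelial genes Krt8, Epcam and Aqp5 were detected in all 18 libraries. Car6, a carbonic anhydrase secreted by the gland, averaged 1297 ± 89.1 CPM (SD, n = 3) at 2 months and 1224 ± 192 CPM at 6 months in BALB/c mice. In NOD.H-2b mice it averaged 169 ± 14.2 and 99.8 ± 18.0 CPM (SD, n = 3 each) at these ages. At 4 months single mice stood apart in Car6. It was at 1459, 1333 and 770 CPM in BALB/c and at 92.2, 290 and 96.2 CPM in NOD.H-2b mice.

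A few libraries stood apart within their groups in immune genes. In BALB/c replicate 3 at 4 months, the 5 pan leukocyte genes (Ptprc, Coro1a, Laptm5, Cd52 and Cd53) summed to 52.1 CPM, against 28.3 and 28.9 CPM in replicates 1 and 2. In NOD.H-2b replicate 1 at 2 months they summed to 78.6 CPM, against 181 and 131 CPM in replicates 2 and 3. In NOD.H-2b replicate 1 at 4 months the sum was 550 CPM, against 340.5 and 325 CPM in replicates 2 and 3, and the T and B cell sums and the members were highest in it as well. Each call made between the strains at 4 months held without that mouse.

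Dendritic cells take up antigen and present it to T cells. Conventional dendritic cells depend on the cytokine receptor Flt3, and their cross-presenting subset, which needs Irf8 and Batf3, shows antigen from dead cells to cytotoxic T cells, while plasmacytoid dendritic cells are known for interferon production. In lacrimal glands with autoimmune inflammation, dendritic cells are found among the lymphocytes of the infiltrates.

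Each of the 10 genes was higher in the NOD.H-2b than in the BALB/c gland when the strain difference was averaged over the 3 ages. The difference spanned 1.29 ± 0.11 log2 (SE, 18 mice) for Irf8 to 3.88 ± 0.26 log2 for Ccl22, with a median of 2.87 log2 over the members and −0.02 log2 over all 19117 genes tested. All 10 passed edgeR's quasi-likelihood test and a 2-fold threshold in that direction, as did 17.6% of all genes tested. A call means a Benjamini-Hochberg adjusted p under 0.05, and the fold threshold is 2 wherever it is used. Every member passed the filter on low counts in this fit and in the 3 strain comparisons.

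At 2 months, 7 of 10 members passed the test and the 2-fold threshold (12% of all genes did), and 9 passed the test at any fold (22.5% of all genes). Zbtb46 and Irf8 were called at 0.99 ± 0.21 and 0.97 ± 0.14 log2 (SE, n = 3 per strain), just under the fold threshold, and Siglech was not called. At 4 months, 9 of 10 passed test and fold (15.6% of all genes), Clec9a being the exception. At 6 months all 10 did (18.8% of all genes). Every NOD.H-2b mouse lay above every BALB/c mouse of its age for 9 members at 2 months (25.3% of all genes), 10 at 4 months (28.4%) and 10 at 6 months (31.3%). Under a filter of at least 10 counts in every sample, scarce members were no longer tested, and 4 passed test and fold at 2 months (7.99% of all genes), 6 at 4 months (10.7%), 6 at 6 months (13%) and 6 averaged over ages (8.99%). No member was called lower in NOD.H-2b at any age, by edgeR or by DESeq2, a further count test. Over all genes, edgeR called 2966 of 17200 lower at 2 months, 3402 of 17722 at 4 months and 4575 of 17750 at 6 months.

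**Figure D1:**
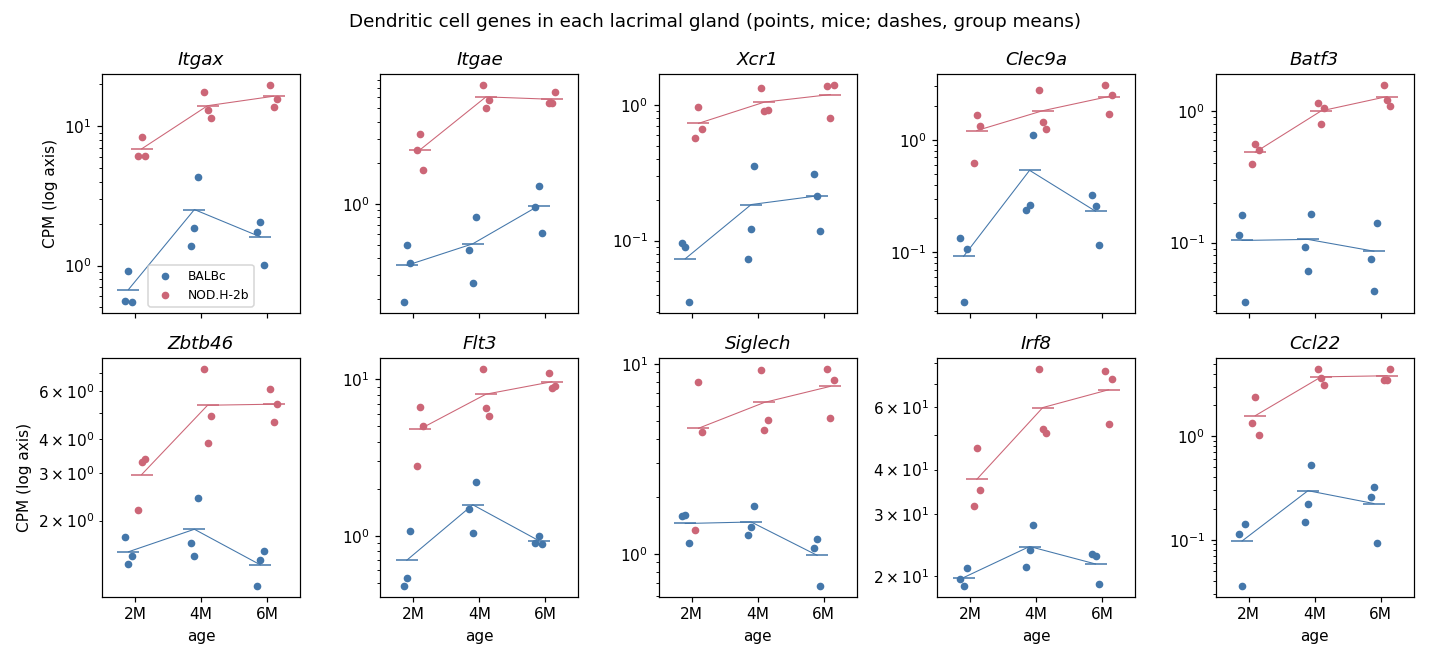
CPM of each of the 10 genes (log axis) in every mouse by age in months, with points for mice, dashes for group means and lines joining the means of 1 strain. NOD.H-2b mice lie above BALB/c mice at each age in every panel, except for Siglech at 2 months, where NOD.H-2b replicate 1 (1.33 CPM) lies among the BALB/c mice.

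Itgax encodes the integrin subunit by which dendritic cells are commonly recognised, which some macrophages and B cells also carry. In BALB/c mice Itgax stood at 0.554, 0.915 and 0.546 CPM at 2 months, 1.38, 1.85 and 4.34 CPM at 4 months and 1.75, 2.07 and 1.01 CPM at 6 months. The NOD.H-2b mice had 6.16, 8.35 and 6.13 CPM, then 17.6, 13.1 and 11.5 CPM, then 19.8, 13.7 and 15.8 CPM of it. Every NOD.H-2b mouse lay above every BALB/c mouse of any age, and the BALB/c maximum was replicate 3 at 4 months. At 6 months the group means were 1.61 ± 0.544 CPM (SD, n = 3) and 16.4 ± 3.09 CPM (SD, n = 3). Itgax was higher in NOD.H-2b by 3.39 ± 0.22, 2.47 ± 0.47 and 3.37 ± 0.24 log2 (SE) at 2, 4 and 6 months, with Benjamini-Hochberg adjusted p of 7.60e-07, 0.00959 and 6.88e-06 in edgeR's quasi-likelihood test. Without BALB/c replicate 3 the difference at 4 months was 3.12 log2, with an edgeR Benjamini-Hochberg adjusted p of 1.86e-05.

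Flt3 encodes the receptor through which the cytokine Flt3l drives dendritic cell development. Its BALB/c values were 0.478, 0.538 and 1.08 CPM at 2 months, 1.47, 1.04 and 2.22 CPM at 4 months and 0.901, 1.00 and 0.888 CPM at 6 months. Its NOD.H-2b values were 2.81, 6.62 and 5.01 CPM, then 11.7, 6.58 and 5.86 CPM, then 11.0, 8.87 and 9.10 CPM. All 9 NOD.H-2b mice lay above all 9 BALB/c mice, and the lowest of them was replicate 1 at 2 months. At 6 months the mean was 0.930 ± 0.0616 CPM for BALB/c against 9.66 ± 1.18 CPM for NOD.H-2b (SD, n = 3 each). The strain difference was 2.82 ± 0.43, 2.34 ± 0.37 and 3.41 ± 0.15 log2 (SE) at 2, 4 and 6 months, and edgeR's quasi-likelihood test gave Benjamini-Hochberg adjusted p of 0.00178, 0.00230 and 2.18e-07. An antisense gene, Gm26597, lies across Flt3 without sharing exon bases.

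Zbtb46 encodes a zinc finger transcription factor of the conventional dendritic cell lineage that endothelial cells also express. BALB/c glands held 1.74, 1.38 and 1.48 CPM of Zbtb46 at 2 months, 1.66, 1.48 and 2.43 CPM at 4 months and 1.15, 1.43 and 1.54 CPM at 6 months. NOD.H-2b glands held 2.18, 3.30 and 3.38 CPM, then 7.26, 3.88 and 4.84 CPM, then 6.13, 4.60 and 5.40 CPM. Within each age the strains did not overlap, but NOD.H-2b replicate 1 at 2 months lay below BALB/c replicate 3 at 4 months. The difference was 0.99 ± 0.21, 1.52 ± 0.28 and 2.02 ± 0.18 log2 (SE) at the 3 ages, with Benjamini-Hochberg adjusted p of 0.00306, 0.00194 and 1.13e-05 by edgeR's quasi-likelihood test. With Irf8 it showed the smallest strain difference of the members at each age.

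Irf8 encodes an interferon regulatory factor that the cross-presenting and plasmacytoid subsets need, and that B cells and macrophages also use. Irf8 was the most abundant member, at 19.6, 18.7 and 21.03 CPM in BALB/c mice at 2 months, 21.2, 23.6 and 27.8 CPM at 4 months and 23.1, 22.8 and 19.0 CPM at 6 months. The NOD.H-2b values were 31.6, 46.0 and 35.1 CPM, then 77.2, 52.0 and 50.7 CPM, then 76.1, 53.7 and 72.1 CPM. All NOD.H-2b mice lay above all BALB/c mice, and the BALB/c values were close to each other across ages. The means at 6 months were 21.6 ± 2.30 and 67.3 ± 11.9 CPM (SD, n = 3 each). The difference was 0.97 ± 0.14, 1.31 ± 0.20 and 1.67 ± 0.14 log2 (SE) at 2, 4 and 6 months, with Benjamini-Hochberg adjusted p of 0.00157, 0.00215 and 1.07e-05 in edgeR's quasi-likelihood test.

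Batf3 encodes the basic leucine zipper factor that partners Irf8 in the cross-presenting subset. It was scarce in BALB/c glands, with 6, 9 and 2 counts at 2 months, 5, 3 and 11 counts at 4 months and 7, 2 and 6 counts at 6 months. NOD.H-2b glands held 24, 37 and 32 counts of it at 2 months, 76, 52 and 53 counts at 4 months and 121, 69 and 62 counts at 6 months, the last being 1.58, 1.21 and 1.09 CPM. Every NOD.H-2b mouse had more Batf3 than every BALB/c mouse, and the few BALB/c counts limit the precision of its folds. The difference was 2.26 ± 0.49, 3.18 ± 0.42 and 3.97 ± 0.41 log2 (SE) at 2, 4 and 6 months, with Benjamini-Hochberg adjusted p of 0.00341, 0.000253 and 2.63e-05 in edgeR's quasi-likelihood test.

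Itgae encodes the integrin subunit that pairs with Itgb7 and binds E-cadherin, and it is carried by mucosal dendritic cells and by T cells within epithelia. In BALB/c mice Itgae stood at 0.191, 0.502 and 0.370 CPM at 2 months, 0.461, 0.264 and 0.805 CPM at 4 months and 0.955, 1.34 and 0.608 CPM at 6 months. In NOD.H-2b mice it stood at 2.46, 3.23 and 1.76 CPM, then 7.40, 5.03 and 5.74 CPM, then 5.42, 5.49 and 6.54 CPM. The strains did not overlap at any pair of ages. Itgae was higher in NOD.H-2b by 2.84 ± 0.35, 3.54 ± 0.35 and 2.61 ± 0.25 log2 (SE) at 2, 4 and 6 months, at Benjamini-Hochberg adjusted p of 7.93e-05, 9.34e-05 and 1.54e-05 by edgeR's quasi-likelihood test.

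Xcr1 encodes the receptor for the chemokine Xcl1 and marks the cross-presenting subset. BALB/c mice had 5, 5 and 2 counts of Xcr1 at 2 months, 4, 6 and 24 counts at 4 months and 29, 10 and 5 counts at 6 months. NOD.H-2b mice had 35, 63 and 42 counts, then 88, 58 and 46 counts, then 105, 46 and 80 counts, at 0.575 to 1.40 CPM over the 9 mice. The strains did not overlap in CPM, and the highest BALB/c level was again replicate 3 at 4 months, at 0.358 CPM. The difference was 3.33 ± 0.46, 2.45 ± 0.50 and 2.42 ± 0.39 log2 (SE) at the 3 ages, with Benjamini-Hochberg adjusted p of 0.000162, 0.00314 and 0.000535 in edgeR's quasi-likelihood test. Without BALB/c replicate 3 it was 3.41 log2 at 4 months (edgeR Benjamini-Hochberg adjusted p = 0.000500).

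Clec9a encodes a lectin by which the cross-presenting subset recognises actin of dead cells. Its BALB/c levels were 0.134, 0.0359 and 0.106 CPM at 2 months, 0.240, 0.264 and 1.10 CPM at 4 months and 0.322, 0.256 and 0.117 CPM at 6 months. Its NOD.H-2b levels were 0.624, 1.67 and 1.34 CPM, then 2.78, 1.44 and 1.24 CPM, then 3.08, 1.70 and 2.52 CPM. The strains did not overlap within an age, yet BALB/c replicate 3 at 4 months came close to the NOD.H-2b mice and exceeded NOD.H-2b replicate 1 at 2 months. The difference was 3.75 ± 0.51 log2 (SE) at 2 months and 3.34 ± 0.36 log2 at 6 months, with Benjamini-Hochberg adjusted p of 0.000173 and 3.84e-05 in edgeR's quasi-likelihood test. At 4 months it was 1.73 ± 0.64 log2 (SE, n = 3 per strain) and was not called by edgeR's quasi-likelihood test (Benjamini-Hochberg adjusted p = 0.0669). Without BALB/c replicate 3 it was 2.85 log2 and called (edgeR Benjamini-Hochberg adjusted p = 0.00110), DESeq2 called it with all 6 mice, and so did edgeR in 1 fit of 18 mice. The test of the difference between 4 and 2 months gave −1.98 ± 0.89 log2 (SE) with an edgeR Benjamini-Hochberg adjusted p of 0.273, so Clec9a was not shown to differ less between strains at 4 months, and without BALB/c replicate 3 at 4 months that value was −0.92 log2. Clec9a shares 184 exon bases with Clec1b on the same strand, and reads from those bases could belong to either gene.

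Siglech encodes a sialic acid-binding lectin of plasmacytoid dendritic cells. BALB/c mice held 1.59, 1.60 and 1.15 CPM of Siglech at 2 months, 1.25, 1.38 and 1.77 CPM at 4 months and 1.07, 1.19 and 0.678 CPM at 6 months. NOD.H-2b mice held 1.33, 8.00 and 4.38 CPM, then 9.24, 4.46 and 5.06 CPM, then 9.40, 5.20 and 8.20 CPM. The strains overlapped at 2 months through NOD.H-2b replicate 1 and did not overlap at 4 or 6 months. The 2-month difference was 1.71 ± 0.70 log2 (SE, n = 3 per strain) and was not called by edgeR's quasi-likelihood test (Benjamini-Hochberg adjusted p = 0.122). Without NOD.H-2b replicate 1 it was 2.14 log2 and called (edgeR Benjamini-Hochberg adjusted p = 0.000145), and without NOD.H-2b replicate 2 it was 1.02 log2 and not called. DESeq2 on all 6 mice and edgeR on all 18 also called it. At 4 and 6 months Siglech was higher by 2.09 ± 0.30 and 2.97 ± 0.27 log2 (SE), with Benjamini-Hochberg adjusted p of 0.000739 and 1.70e-05 by edgeR's quasi-likelihood test. With all mice, the strain difference of Siglech was not shown to change with age, at 1.27 ± 0.72 log2 (SE) between 6 and 2 months with an edgeR Benjamini-Hochberg adjusted p of 0.247. Without NOD.H-2b replicate 2 at 2 months that value was 1.95 log2 and called (edgeR Benjamini-Hochberg adjusted p = 0.0484).

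Ccl22 encodes a chemokine that mature dendritic cells and some macrophages make and that draws T cells carrying Ccr4. BALB/c mice had 6, 2 and 8 counts of Ccl22 at 2 months, 8, 11 and 35 counts at 4 months and 24, 15 and 4 counts at 6 months. NOD.H-2b mice had 81, 156 and 65 counts, then 291, 237 and 157 counts, then 269, 200 and 255 counts, the last being 3.51, 3.50 and 4.47 CPM. The lowest NOD.H-2b mouse, replicate 3 at 2 months with 1.02 CPM, lay above the highest BALB/c mouse, replicate 3 at 4 months with 0.522 CPM. Ccl22 had the largest strain difference of the members at each age, of 4.03 ± 0.48, 3.60 ± 0.39 and 4.07 ± 0.32 log2 (SE). Next came Clec9a at 2 months (3.75 ± 0.51), Itgae at 4 months (3.54 ± 0.35) and Batf3 at 6 months (3.97 ± 0.41 log2, SE). These standard errors overlapped those of Ccl22, and the order was not tested. For Ccl22 the Benjamini-Hochberg adjusted p was 6.97e-05, 0.000107 and 4.30e-06 in edgeR's quasi-likelihood test. Without BALB/c replicate 3 the difference at 4 months was 4.33 log2 (edgeR Benjamini-Hochberg adjusted p = 1.54e-05).

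The next question was whether these genes changed with age inside each strain. In NOD.H-2b, 4 of 10 members rose from 2 to 4 months (10.3% of all genes did), namely Itgae by 1.29 ± 0.24, Ccl22 by 1.24 ± 0.31, Batf3 by 1.04 ± 0.29 and Itgax by 1.03 ± 0.19 log2 (SE, n = 3 per age). The Benjamini-Hochberg adjusted p of edgeR's quasi-likelihood test ran from 0.0141 for Itgae to 0.0410 for Batf3. This count rests on single mice. Without NOD.H-2b replicate 1 at 2 months 1 member passed test and fold (660 of 18249 genes). The same count came without replicate 3 at 2 months (229 of 18247 genes) and without replicate 1 at 4 months (545 of 18060 genes). With all mice 1061 of 17763 genes passed. Batf3 lost its call without any 1 of the 6 mice (0.89 to 1.18 log2), Ccl22 without replicate 1 or 3 at 2 months (1.11 and 1.00 log2) or replicate 1 or 2 at 4 months (1.08 and 1.26 log2), and Itgax without replicate 3 at 2 months (0.95 log2). Zbtb46, at 0.85 ± 0.27 log2 (SE), was called only without replicate 2 at 4 months (1.04 log2), by DESeq2 and in 1 fit of 18 mice, and Irf8 (0.68 ± 0.23 log2, SE) by the last 2 alone. With the replicate number as a block, none of the 4 was called. The edgeR Benjamini-Hochberg adjusted p was then 0.0623 for Itgax and Itgae, 0.0697 for Ccl22 and 0.122 for Batf3. Over all genes the block left 186 of 17763 called higher, against 1826 without it. Tested against a 2-fold change itself (glmTreat), 0 members passed (0.253% of all genes). From 4 to 6 months, 0 of 10 were called (0.00555% of all genes rose), with 0 at an unadjusted edgeR p under 0.05 and 0 by DESeq2. Over all genes 1 of 18026 rose in that fit. Without NOD.H-2b replicate 1 at 4 months 154 rose, with the replicate block 317 and in 1 fit of 18 mice 151. The age comparisons of a strain share mice.

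From 2 to 6 months in NOD.H-2b, 7 of 10 members were called higher (20.7% of all genes were). Batf3 rose by 1.39 ± 0.27, Ccl22 by 1.26 ± 0.29, Itgax by 1.24 ± 0.17 and Itgae by 1.21 ± 0.21 log2 (SE, n = 3 per age), all past the 2-fold threshold, at Benjamini-Hochberg adjusted p of 0.00448, 0.0113, 0.00165 and 0.00280 in edgeR's quasi-likelihood test. Flt3, Zbtb46 and Irf8 rose by 0.98 ± 0.31, 0.84 ± 0.19 and 0.82 ± 0.19 log2 (SE), with edgeR Benjamini-Hochberg adjusted p of 0.0469, 0.00880 and 0.0157. The call of Flt3 was lost without NOD.H-2b replicate 3 at 2 months and without replicate 1, 2 or 3 at 6 months, where it stood at 1.02, 0.88, 1.04 and 1.03 log2. It was also lost with no filter and with the replicate number as a block (edgeR Benjamini-Hochberg adjusted p of 0.148 and 0.0924). That of Irf8 was lost without replicate 3 at 2 months and without replicate 1 or 3 at 6 months, at 0.79, 0.73 and 0.77 log2, and likewise with no filter and with that block (edgeR Benjamini-Hochberg adjusted p of 0.0646 and 0.0733). Without NOD.H-2b replicate 2 at 2 months, 7 passed test and fold (2230 of 18558 genes), against 4 with all mice (10.9% of all genes). With all mice, glmTreat against a 2-fold change gave 0 (1.87% of all genes). Clec9a (0.98 ± 0.37), Siglech (0.71 ± 0.68) and Xcr1 (0.68 ± 0.30 log2, SE) were not called, at edgeR Benjamini-Hochberg adjusted p of 0.0636, 0.462 and 0.101. Siglech stood at 1.40 log2 without replicate 2 at 2 months and was not called there either. Clec9a was called by DESeq2, and without replicate 2 at 2 months (1.30 log2) or replicate 2 at 6 months (1.19 log2). Xcr1 was called without replicate 2 at 6 months (0.90 log2).

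In BALB/c, 7 members passed the filter for 2 against 4 months, and 2 of them were called higher (6.1% of all genes were). Itgax rose by 1.92 ± 0.48 and Clec9a by 2.56 ± 0.72 log2 (SE, n = 3 per age), at Benjamini-Hochberg adjusted p of 0.0441 and 0.0457 in edgeR's quasi-likelihood test. Neither call was firm, and glmTreat against a 2-fold change passed 0 (0.451% of all genes). Clec9a was also not called in 1 fit of 18 mice. Without BALB/c replicate 3 at 4 months, Clec9a stood at 1.44 log2 (edgeR Benjamini-Hochberg adjusted p = 0.194) and Itgax at 1.26 log2 (0.0214). Leaving out a 2-month mouse gave Itgax 1.80, 2.21 and 1.79 log2 and Clec9a 2.91, 2.18 and 2.68 log2 without replicate 1, 2 and 3, and none of these 6 values was called. Itgax was also not called without replicate 2 at 4 months (2.10 log2). Flt3, at 1.19 ± 0.36 log2 (SE), had an edgeR Benjamini-Hochberg adjusted p of 0.0563 and was called by DESeq2, with no filter and with the replicate number as a block. It was also called without replicate 3 at 2 months (1.64 log2) and without replicate 2 at 4 months (1.41 log2). Irf8, at 0.30 ± 0.09 log2 (SE), was called without replicate 1 at 4 months (0.38 log2), by DESeq2, with no filter and with that block.

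From 4 to 6 months in BALB/c, 9 members were tested and 0 were called (0.174% of all genes rose), with 1 at an unadjusted edgeR p under 0.05 and 0 by DESeq2. The 1 was Flt3 at −0.78 ± 0.29 log2 (SE, n = 3 per age). From 2 to 6 months, 6 were tested and 1 was called (3.48% of all genes were), Itgax at 1.26 ± 0.31 log2 (SE) with a Benjamini-Hochberg adjusted p of 0.0403 in edgeR's quasi-likelihood test. That call was lost without replicate 1 or 3 at 2 months (1.14 and 1.13 log2) and without replicate 1 or 2 at 6 months (1.18 and 1.04 log2), and in 1 fit of 18 mice. Itgae, at 1.43 ± 0.40 log2 (SE), missed the threshold in edgeR's quasi-likelihood test (Benjamini-Hochberg adjusted p = 0.0617). It was called without replicate 3 at 6 months (1.65 log2), by DESeq2 and with no filter.

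Whether the strain difference itself changed with age was tested across all 18 mice. Between 4 and 2 months it changed for 0 of 10 members (0.696% of all genes gained), with 1 member, Clec9a, at an unadjusted edgeR p under 0.05 and 0 by DESeq2. Over all genes that test called 133 gains and 187 losses, a split that became 121 and 272 under upper quartile scaling and 415 and 553 by DESeq2. Leaving out 1 mouse gave 25 to 212 gains and 85 to 367 losses. Between 6 and 2 months 1 member gained (7.04% of all genes did). It was Zbtb46, whose strain difference was larger at 6 months by 1.04 ± 0.34 log2 (SE), with a Benjamini-Hochberg adjusted p of 0.0459 in edgeR's quasi-likelihood test. Batf3 and Irf8 had values of 1.71 ± 0.66 and 0.71 ± 0.26 log2 (SE) with edgeR Benjamini-Hochberg adjusted p of 0.0818 and 0.0795. The call of Zbtb46 did not survive the loss of most mice taken singly. Without NOD.H-2b replicate 1 at 2 months it stood at 0.86 log2 (edgeR Benjamini-Hochberg adjusted p = 0.114), and without BALB/c replicate 1 at 6 months at 0.86 log2. The other mice whose loss ended the call were each further mouse of the BALB/c groups except replicate 3 at 4 months, NOD.H-2b replicate 3 at 2 months and NOD.H-2b replicates 1 and 3 at 6 months, with values of 0.89 to 1.14 log2. With the replicate number as a block it stood at 1.02 log2 and was not called. Over all genes, leaving out 1 mouse gave 639 to 1541 gains between 6 and 2 months. The count of members called rose to 3 without NOD.H-2b replicate 2 at 2 months (1402 of 19551 genes gained). It rose to 2 without NOD.H-2b replicate 1 at 4 months (1533 of 19519 genes) or replicate 2 at 6 months (1541 of 19525 genes). Irf8 was called in these 3 cases (0.88, 0.71 and 0.85 log2) and by DESeq2, Siglech without NOD.H-2b replicate 2 at 2 months (1.95 log2) and Batf3 without BALB/c replicate 3 at 2 months (2.08 log2).

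Leukocyte genes were higher in the NOD.H-2b gland as well, so the members were also measured against the leukocyte gene Ptprc, which every white blood cell expresses. Ptprc itself stood at 7.39, 8.33 and 6.36 CPM in BALB/c mice at 2 months, 11.1, 11.9 and 23.7 CPM at 4 months and 10.8, 13.9 and 11.5 CPM at 6 months. In NOD.H-2b mice it stood at 36.4, 96.7 and 66.8 CPM, then 302, 179 and 169 CPM, then 365, 221 and 279 CPM. Every NOD.H-2b mouse lay above every BALB/c mouse in Ptprc, and the strain difference averaged over ages was 3.85 ± 0.24 log2 (SE), more than that of each member except Ccl22.

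Per 1000 counts of Ptprc, the BALB/c mice held 2646, 2250 and 3305 counts of Irf8 at 2 months and 2149, 1642 and 1642 counts at 6 months. The NOD.H-2b mice held 867, 475 and 525 counts of Irf8 at 2 months and 209, 244 and 259 counts at 6 months. Irf8 was thus lower in each NOD.H-2b mouse than in each BALB/c mouse of these ages on that scale. For Zbtb46 the values per 1000 Ptprc counts at 6 months were 107, 103 and 134 in BALB/c and 16.8, 20.9 and 19.3 in NOD.H-2b. For Ccl22 they were 24.0, 23.0 and 8.10 in BALB/c and 9.64, 15.9 and 16.0 in NOD.H-2b, and here the strains overlapped.

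Averaged over ages on the Ptprc scale, 8 of 10 members were lower in NOD.H-2b (93.1% of all genes were) and 0 were higher (2.68% of all genes were, and DESeq2 gave 0). The differences were −2.55 ± 0.24 for Irf8, −2.35 ± 0.26 for Zbtb46, −1.71 ± 0.26 for Siglech, −1.04 ± 0.26 for Flt3, −1.03 ± 0.37 for Xcr1, −0.89 ± 0.33 for Clec9a, −0.77 ± 0.27 for Itgae and −0.69 ± 0.25 log2 (SE, 18 mice) for Itgax. The largest Benjamini-Hochberg adjusted p among these 8 was 0.00819, for Clec9a, in edgeR's quasi-likelihood test. Batf3 (−0.64 ± 0.40) and Ccl22 (0.13 ± 0.32 log2, SE) were not called, at edgeR Benjamini-Hochberg adjusted p of 0.107 and 0.686. The median over all genes was −3.81 log2, and the value of each member lay above it. By age, 3 members were lower at 2 months (92.4% of all genes were), 6 at 4 months (92.5%) and 8 at 6 months (94.1%), and the change of these differences with age was not tested.

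Another scale moves all genes by about the same amount, so the sign of a value on such a scale speaks only of the gene relative to that scale. With the summed counts of the 5 pan leukocyte genes in place of Ptprc, 5 members were lower (92.1% of all genes were), and Itgax (−0.37), Itgae (−0.44) and Clec9a (−0.56 log2) lost their calls. With Zbtb46 as the scale, 0 were lower (81.2% of all genes were) and 8 higher (10.7% of all genes were), among them Itgax at 1.60, Itgae at 1.53, Clec9a at 1.45, Flt3 at 1.34, Xcr1 at 1.26 and Siglech at 0.68 log2, where the median over all genes was −1.47 log2. These are about the values per Ptprc count less the −2.35 log2 of Zbtb46 itself, so their signs follow from the choice of Zbtb46 and are no separate test of the members. Irf8 stood at −0.20 log2 against Zbtb46 and was not called.

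**Figure D2:**
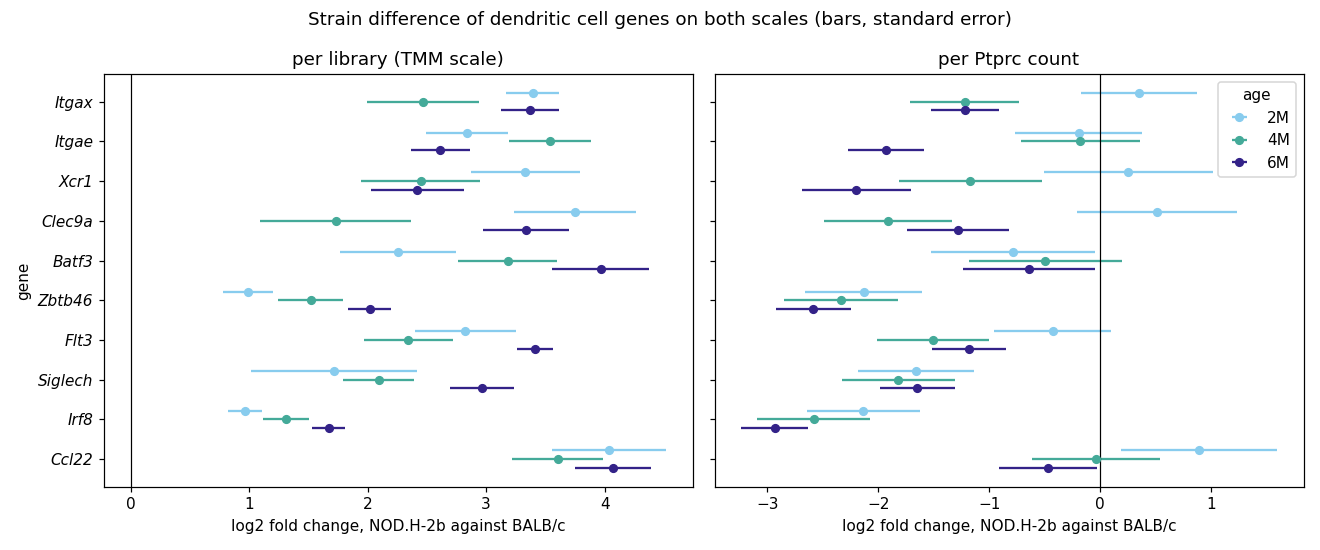
Log2 fold change of NOD.H-2b over BALB/c for each gene at 2, 4 and 6 months, per library on the TMM scale (left) and per Ptprc count (right), with bars for the standard error. All values are above 0 per library, while per Ptprc count those of Irf8, Zbtb46 and Siglech are below −1.5 at each age and those of Ccl22 go from 0.89 to −0.47.

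Levels of different genes were compared as CPM per kilobase of exon. In NOD.H-2b mice at 6 months the order was Irf8 (9.54 ± 1.69), Itgax (3.42 ± 0.644), Siglech (2.25 ± 0.641), Ccl22 (1.65 ± 0.239), Flt3 (1.56 ± 0.192), Itgae (1.27 ± 0.136), Batf3 (0.809 ± 0.161), Clec9a (0.739 ± 0.212), Zbtb46 (0.632 ± 0.0896) and Xcr1 (0.268 ± 0.0755 CPM per kb, SD, n = 3). Over the 3 mice, neighbours in this order overlapped only between Siglech and Ccl22, Ccl22 and Flt3, Batf3 and Clec9a, and Clec9a and Zbtb46. In BALB/c mice at 6 months Irf8 led at 3.06 ± 0.326 CPM per kb, followed by Itgax at 0.334 ± 0.113 and Siglech at 0.290 ± 0.0796 CPM per kb, which overlapped. Ccl22 stood next to Siglech in NOD.H-2b but below Itgae, Zbtb46 and Flt3 in BALB/c at that age, at 0.0961 ± 0.0502 CPM per kb (SD, n = 3) in BALB/c. By group means Xcr1 was last in all 6 groups, and in BALB/c it overlapped the gene above it at each age.

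For each member, the genes with the most similar course over the 18 mice were sought among tested genes of like mean level, by the root mean square difference of centred log2 CPM. Irf8 was closest to Gm2a (0.12) and Mob3a (0.12 log2), where the median over 6975 genes was 0.80. Zbtb46 was closest to Arl4c (0.18) and Parp8 (0.21 log2). For Itgax they were Selplg and Itgb2, its own integrin partner (both 0.26 log2), for Flt3 Otulinl (0.26) and Atp8b4 (0.27 log2), and for Clec9a Atp8b4 (0.36) and Samd3 (0.39 log2). Itgae was closest to Naip2 (0.32) and Cd226 (0.38 log2), Xcr1 to Cfb (0.27) and Ccl4 (0.30 log2), and Batf3 to Oprd1 (0.26) and Nlrc4 (0.27 log2). Siglech was closest to I830077J02Rik and Fyn (both 0.39 log2), and Ccl22 to Tnf (0.34) and Rnase6 (0.37 log2).

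The other genes of these cells were read from lists of markers, and a gene is called higher or lower by edgeR's quasi-likelihood test at any fold, as 28.6% and 25.8% of all genes were at 6 months. In the list of the cross-presenting subset (8 genes besides the members), 6 were higher and 0 lower at 6 months, with a median strain difference of 0.97 log2. Wdfy4, which the subset needs to cross-present, was higher by 3.38 ± 0.26 log2 (SE, averaged over ages), Naaa by 1.16 ± 0.08, Ifi205 by 0.85 ± 0.09 and the nucleic acid sensor Tlr3 by 0.82 ± 0.08 log2. The most abundant gene of that list, the lysosomal enzyme Ppt1, differed by −0.10 ± 0.03 log2 (SE). In the list of the Irf4-dependent conventional subset, 4 of 8 tested genes were higher and 2 lower at 6 months, with a median of 0.24 log2. Irf4 was higher by 2.59 ± 0.18 and the signal regulatory receptor Sirpa by 1.28 ± 0.11 log2 (SE, averaged over ages), while the lectin Mgl2 was lower, at −0.90 ± 0.13 log2. Notch2, its most abundant gene, stood at 0.13 ± 0.05 log2 (SE). Genes of B cells, T cells and macrophages moved with these values too, and the part of those cells in them was not tested. Between the strains, summed levels of the first list had medians of 94.2 CPM for BALB/c (83.4 to 102, 9 mice) and 167 CPM for NOD.H-2b (114 to 233), and those of the latter list 156 CPM (133 to 168) and 207 CPM (152 to 259).

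In the plasmacytoid list, 10 of 11 tested genes were higher and 1 lower at 6 months, with a median of 3.05 log2. Ly6d was higher by 3.74 ± 0.31, the DNA sensor Tlr9 by 3.55 ± 0.24, the RNA sensor Tlr7 by 2.66 ± 0.18 and Tcf4, the lineage's transcription factor and the most abundant gene of the list, by 0.37 ± 0.06 log2 (SE, averaged over ages). Pacsin1 had 1, 1 and 0 counts in BALB/c mice and 365, 152 and 255 counts in NOD.H-2b mice at 6 months. Its marker Cox6a2 was at 0 in all BALB/c mice at 2 and 6 months and had 2, 1 and 14 counts in NOD.H-2b mice at 6 months. The list summed to a median of 96.8 CPM for BALB/c (85.8 to 107, 9 mice) and 189 CPM for NOD.H-2b (121 to 264). Ly6d, Tlr9 and Spib are also genes of B cells, which moved with these values, and their part was not tested.

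In the list of mature dendritic cells, 12 of 13 tested genes were higher and 0 lower at 6 months, with a median of 4.19 log2. The costimulatory receptor Cd40 was higher by 5.92 ± 0.30, the chemokine receptor Ccr7 by 4.82 ± 0.28 and the amino acid oxidase Il4i1 by 3.95 ± 0.20 log2 (SE, averaged over ages). The cytokine gene Il12b had 5, 0 and 0 counts in BALB/c mice and 145, 70 and 114 counts in NOD.H-2b mice at 6 months. Cacnb3, its most abundant gene, differed by −0.22 ± 0.06 log2 (SE). The list summed to a median of 31.9 CPM for BALB/c (30.5 to 40.3, 9 mice) and 114 CPM for NOD.H-2b (60.7 to 169). Cd40 is also a gene of B cells and Ccr7 one of T and B cells, whose genes moved with these values, and their part was not tested.

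Ligands, partners and regulators of the members formed a further list, in which 10 of 12 tested genes were higher and 0 lower at 6 months (median 3.25 log2). The integrin partners Itgb7 and Itgb2 were higher by 3.26 ± 0.24 and 3.01 ± 0.18 log2 (SE, averaged over ages), and Syk, a kinase downstream of Clec9a, by 2.77 ± 0.16 log2. The ligand Xcl1 had 1, 0 and 1 counts in BALB/c mice and 62, 45 and 63 counts in NOD.H-2b mice at 6 months. Cdh1, the E-cadherin that Itgae binds and the most abundant gene of the list, differed by 0.20 ± 0.06 log2 (SE). At 2 months Cdh1 was at 107, 106 and 105 CPM in BALB/c and at 190, 158 and 168 CPM in NOD.H-2b mice. At 6 months it was at 121, 128 and 101 CPM and at 99.8, 118 and 107 CPM, and the strains overlapped. The list summed to a median of 153 CPM for BALB/c (138 to 193, 9 mice) and 331 CPM for NOD.H-2b (275 to 410).

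Genes of other immune cells moved with the members. The 8 T cell genes were all higher at 6 months (median 5.93 log2) and summed to 0.649, 0.592 and 0.317 CPM in BALB/c mice at 2 months, 1.31, 0.975 and 5.58 CPM at 4 months and 1.51, 1.87 and 1.496 CPM at 6 months. In NOD.H-2b mice they summed to 8.34, 30.4 and 19.3 CPM, then 115, 64.8 and 64.9 CPM, then 98.5, 72.3 and 93.2 CPM. NOD.H-2b replicate 1 at 2 months and BALB/c replicate 3 at 4 months stood apart in this sum as in Siglech and Clec9a. Cd4 was the most abundant T cell gene, higher by 5.48 ± 0.37 log2 (SE, averaged over ages).

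The 9 B cell genes were all higher at 6 months too, with a median of 8.60 log2. Their sum was 0.420, 0.718 and 0.123 CPM in BALB/c mice at 2 months, 1.42, 1.30 and 2.53 CPM at 4 months and 1.32, 2.53 and 0.935 CPM at 6 months. In NOD.H-2b mice it was 1.69, 33.2 and 13.5 CPM, then 371, 202 and 170 CPM, then 506, 252 and 337 CPM. NOD.H-2b replicate 1 at 2 months lay above the BALB/c mice of its age but within the range of BALB/c mice of all ages. Cd22, the most abundant gene of the list, had 2, 2 and 0 counts in BALB/c mice and 44, 390 and 180 counts in NOD.H-2b mice at 2 months. At 6 months it had 17, 11 and 1 counts in BALB/c mice and 6698, 2286 and 3094 counts in NOD.H-2b mice. Per Ptprc count, the B cell genes were higher in 9 of 9 (median 3.87 log2) and the T cell genes in 8 of 8 (median 1.51 log2), where 2.68% of all genes were higher. Of 12 macrophage genes 11 were lower on that scale (median −1.94 log2), where 93.1% of all genes were. So were 3 of 3 monocyte and 6 of 6 plasma cell genes. Of 4 natural killer genes 0 were called, and 4 of 4 lymph node stroma genes were higher.

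Of 12 macrophage genes, 9 were higher and 1 lower at 6 months (median 1.99 log2). They summed to 104.2, 110 and 80.6 CPM in BALB/c mice at 2 months, 127, 133 and 193 CPM at 4 months and 119, 151 and 125 CPM at 6 months. In NOD.H-2b mice the sum was 265, 289 and 284 CPM, then 412, 391 and 398 CPM, then 501, 411 and 384 CPM. The strains did not overlap, and Lyz2, the most abundant macrophage gene, was higher by 2.35 ± 0.15 log2 (SE, averaged over ages). Among genes of other cells, all 5 pan leukocyte and 4 of 4 natural killer genes were higher at 6 months (medians 4.15 and 3.94 log2), as were 2 of 3 tested monocyte genes, the 1 tested neutrophil gene, Csf3r, and 4 of 6 plasma cell genes, of which 1 was lower. Of 3 tested mast cell genes 1 was higher and 2 lower, and of 9 epithelial genes 1 was higher and 5 lower. The monocyte marker Chil3 was at 0 in all BALB/c mice, and the neutrophil markers S100a8 and S100a9 were at 0 in BALB/c mice at 2 months.

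The sums of these smaller lists over the 9 mice of a strain were as follows. Pan leukocyte genes had a median of 25.3 CPM for BALB/c (16.2 to 52.1) and 340.5 CPM for NOD.H-2b (78.6 to 649), with Ptprc most abundant. Natural killer genes had 0.341 CPM (0.0935 to 1.64) and 4.76 CPM (1.87 to 7.26), with Ncr1 most abundant, and monocyte genes 17.0 CPM (8.59 to 23.8) and 46.5 CPM (43.1 to 53.6), with F13a1 most abundant. In these lists the strains did not overlap. Neutrophil genes had 0.884 CPM (0.439 to 1.65) and 5.25 CPM (1.89 to 6.81), and plasma cell genes, led by Xbp1, which gland cells also express, 536 CPM (405 to 661) and 831 CPM (440.4 to 1075). Mast cell genes, led by Kit, had 16.9 CPM (15.1 to 21.3) and 27.9 CPM (20.996 to 32.6). Kit made up most of this sum. The median strain difference of the mast cell list at 6 months was −1.49 log2, with 2 of 3 tested genes lower. Epithelial genes, led by Car6 in BALB/c but not in NOD.H-2b mice, had 2621 CPM (2202 to 2822) and 1596 CPM (1218 to 1900). Without Car6 the epithelial sums overlapped, at 1319 CPM (1270 to 1464) and 1461 CPM (1100 to 1736), and at 2 months 6 of 9 epithelial genes were higher and 1 lower. The part of each of these cells in the levels of the members was not tested. Itgax, Irf8, Itgae, Zbtb46 and Ccl22 are among the members not limited to dendritic cells.

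Genes of lymph node stroma were read for adjacent lymph node tissue. Of 4 tested, 4 were higher at 6 months, and the list summed to a median of 0.332 CPM for BALB/c (0.0955 to 0.894, 9 mice) and 17.6 CPM for NOD.H-2b (2.40 to 40.4). Cxcl13 was the most abundant, higher by 4.73 ± 0.28 log2 (SE, averaged over ages). Ccl21a was at 0 in all 18 mice. Whether the counting could assign reads to Ccl21a was not tested, so this 0 does not show its absence. Ccl19 was at 0 in BALB/c mice at 2 and 6 months, and Chst4 at 2, 4 and 6 months. Madcam1 had 0, 2 and 1 counts in NOD.H-2b mice at 6 months.

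The 10 genes lie on 8 chromosomes of the mouse build GRCm38: Itgax (ENSMUSG00000030789) at chr7:128129547-128150657, Siglech (ENSMUSG00000051504) at chr7:55768178-55778925, Itgae (ENSMUSG00000005947) at chr11:73090583-73147446, Xcr1 (ENSMUSG00000060509) at chr9:123852315-123862029, Clec9a (ENSMUSG00000046080) at chr6:129408862-129424763, Batf3 (ENSMUSG00000026630) at chr1:191097847-191108945, Zbtb46 (ENSMUSG00000027583) at chr2:181387762-181459426, Flt3 (ENSMUSG00000042817) at chr5:147330741-147400489, Irf8 (ENSMUSG00000041515) at chr8:120736358-120756694 and Ccl22 (ENSMUSG00000031779) at chr8:94745590-94751699. Each is annotated as protein coding. Promoters were examined because the members moved together and because Batf3 binds AP-1 letters. Of the 10 genes, 9 had an entry in the RefSeq promoter table (build GRCm38.p6, 250 bases before to 50 after the start), Itgae having none and Irf8 having 2 entries. Motifs were searched on both strands. The AP-1 letters TGANTCA occurred in 2 of these 10 entries, Itgax and Zbtb46, and in 7.81% of 32851 promoters. The IRF letters GAAANNGAA occurred in 1 of 10, Clec9a, and in 8.56% of promoters. The ETS-IRF letters GGAANNGAA occurred in 0 of 10 (8.24% of promoters), the NF-kB letters GGGANTTTC in 0 of 10 (1.11%) and the E-box letters CANNTG in 9 of 10 (72.3%), the exception being an Irf8 entry. GGAANNGAA and GAAANNGAA can overlap in sequence.

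The 3 promoters with an AP-1 or IRF match are printed 5′ to 3′ on the gene's strand, with the match in capitals and E-box letters left in lower case. They are Itgax at chr7:128129300-128129599 (plus strand, match from base −56), Zbtb46 at chr2:181424339-181424638 (minus strand, match from base −61) and Clec9a at chr6:129408612-129408911 (plus strand, match from base −2). The Zbtb46 window lies inside the annotated gene given above, whose 5′ end on the minus strand is at base 181459426. Whether that window acts as a promoter was not tested.
Itgax: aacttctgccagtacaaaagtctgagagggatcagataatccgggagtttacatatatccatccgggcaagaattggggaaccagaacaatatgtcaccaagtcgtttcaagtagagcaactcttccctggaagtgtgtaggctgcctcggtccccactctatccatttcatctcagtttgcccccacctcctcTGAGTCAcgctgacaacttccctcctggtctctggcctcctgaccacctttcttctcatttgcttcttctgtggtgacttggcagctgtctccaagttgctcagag
Zbtb46: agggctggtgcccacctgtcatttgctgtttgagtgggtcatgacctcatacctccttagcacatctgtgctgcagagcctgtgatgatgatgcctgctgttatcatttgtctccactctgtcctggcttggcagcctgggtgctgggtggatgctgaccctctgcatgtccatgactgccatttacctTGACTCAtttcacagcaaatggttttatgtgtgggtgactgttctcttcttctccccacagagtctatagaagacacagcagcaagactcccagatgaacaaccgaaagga
Clec9a: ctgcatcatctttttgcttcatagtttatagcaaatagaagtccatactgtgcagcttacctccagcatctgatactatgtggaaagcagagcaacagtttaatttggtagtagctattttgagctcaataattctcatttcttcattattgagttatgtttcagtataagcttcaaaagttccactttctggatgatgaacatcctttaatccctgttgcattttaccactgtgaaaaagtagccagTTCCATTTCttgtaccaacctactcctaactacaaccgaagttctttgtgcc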

How the data were processed

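The counts per gene deposited by the authors were used as they stand. The submitters' processing notes name cutadapt for trimming, STAR for alignment to GRCm38 and HTSeq for counting. Versions, strand setting and annotation release are not given in the sources used here. The deposited normalized table was not used.

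Counts were filtered with filterByExpr, scaled by TMM and tested with the robust quasi-likelihood test of edgeR 4.0.16 under R 4.3.3, with 6 mice per pairwise comparison. Averages over ages, and tests of whether the strain difference changes with age, came from 1 fit of 18 mice. P values were adjusted over all tested genes by Benjamini-Hochberg, with a false discovery rate threshold of 0.05 and a fold change threshold of 2. Tests of change with age used the false discovery rate alone. The measure relative to Ptprc used Ptprc counts as the library scale.

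The 10 members and the 16 other lists (129 genes) were chosen with earlier results of these data known. The lists cover the cross-presenting and Irf4-dependent conventional subsets, plasmacytoid and mature dendritic cells, partners of the members, and genes of pan leukocyte, macrophage, monocyte, B, T, natural killer, plasma, neutrophil, mast, lymph node stroma and epithelial cells. From each list the most abundant gene was named, and up to 4 genes with the largest absolute log2 fold change averaged over ages among those called at every age. Markers at 0 and the tissue markers are named outside this rule, and genes with few BALB/c counts are given by counts.

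Alternatives were DESeq2 size factors, upper quartile scaling, no filter, at least 10 counts in every sample, the DESeq2 1.42.0 Wald test, glmTreat, a replicate block, 1 fit of 18 mice, a fit of the 2-month and 6-month mice alone, leaving out each mouse, and other genes as the scale in place of Ptprc. The steps were tested on simulated data. Gene coordinates are from GENCODE M21, which matched 54079 of 54232 genes, and promoters from RefSeq.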

Additional observations from a re-analysis of the deposited data

Results flagged for a closer look

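For the test of whether the strain difference changes between ages, genes are named from the members, dendritic cell lists and partners. The difference between NOD.H-2b and BALB/c was smaller or more negative at 4 than at 2 months for Cdh1, by −0.69 log2. Between 6 and 2 months it was larger for Zbtb46 (1.04), Syk (1.52), Notch2 (0.40), Fscn1 (1.60), Tcf4 (0.45) and Il4i1 (1.95 log2). It was smaller or more negative for Cdh1 (−0.80), Klf4 (−0.85) and Tlr3 (−0.93 log2). Leaving out most single mice ended the call of Zbtb46. In the other lists the test called losses for 3 of 9 epithelial genes by 4 months and 5 by 6 months. By 6 months it called gains for 2 pan leukocyte genes and 1 B cell gene. Losses came for 2 macrophage, 2 mast cell, 1 monocyte and 1 plasma cell gene. Over all 19117 genes it called 1345 gains and 1738 losses by 6 months.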

How the results depend on the processing

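Counts of members moved as follows, those between strains or ages by test and fold, and those for a change of the strain difference or relative to Ptprc by the test alone. For the strain difference, at least 10 counts in every sample gave 4 in place of 7 at 2 months, 6 in place of 9 at 4 months, 6 in place of 10 at 6 months and 6 in place of 10 averaged over ages. Leaving out 1 mouse gave 7–10 at 2 months, 9–10 at 4 months and 10–10 at 6 months. With all mice, 12%, 15.6% and 18.8% of all genes passed at these ages.

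For BALB/c from 2 to 4 months (2 members), at least 10 counts in every sample gave 1, glmTreat 0, 1 fit of 18 mice 1 and leaving out 1 mouse 0–2. From 2 to 6 months (1 member), no filter gave 2, DESeq2 2, glmTreat 0, 1 fit of 18 mice 0 and leaving out 1 mouse 0–2. For NOD.H-2b from 2 to 4 months (4 members), glmTreat gave 0 and leaving out 1 mouse 1–3. From 2 to 6 months (4 members), glmTreat gave 0 and leaving out 1 mouse 4–7. The change of the strain difference between 6 and 2 months (1 member) became 2 under DESeq2 and 0–3 leaving out 1 mouse.

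Relative to Ptprc (0 higher, 8 lower), the 5 pan leukocyte genes as the scale gave 5 lower, and Zbtb46 as the scale 8 higher and 0 lower. Zbtb46 as the scale reversed Itgax (1.60), Itgae (1.53), Xcr1 (1.26), Clec9a (1.45), Flt3 (1.34) and Siglech (0.68 log2). Those signs follow from the construction of that scale, which raises all genes by about as much as Zbtb46 was lower per Ptprc count (−2.35 log2), and do not test the members.

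With the replicate block, the count was 7 at 2 months, 9 at 4 months and 10 at 6 months for strain and 10 averaged over ages. These counts were the same without the block, where 12%, 15.6%, 18.8% and 17.6% of all genes passed. The replicate block gave 3 for BALB/c from 2 to 4 months, 0 from 4 to 6 and 1 from 2 to 6. For NOD.H-2b it gave 0, 0 and 4. Over all genes, 281 of 16639, 3 of 16622 and 281 of 16579 passed in BALB/c, against 345, 3 and 260 without the block. In NOD.H-2b 135 of 17763, 38 of 18026 and 1368 of 18008 genes passed, against 1061, 1 and 1965. For change of the strain difference the block gave 0 by 4 months (97 of 19117 genes) and 0 by 6 months (1309). Relative to Ptprc it gave 8 lower and 0 higher (17764 and 506 of 19117 genes). Whether mice of the same number share a batch is not given by the labels. Correlations between mice of the same number ran from −0.34 to 0.34 and were not all above 0.1 in any comparison. With 3 mice per group they cannot decide whether the numbers mark a shared batch.

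For single genes, not only the members, 3083 values stayed the same over all alternatives, 34 grew stronger, 86 weaker, 41 moved and 6 reversed. Apart from that scale, the cause was not tested. The filter left Xcr1, Batf3 and Ccl22, with 2 to 35 counts in a BALB/c mouse at 2 and 4 months, out of the test between those ages.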
